A study of Homo sapiens with 9 samples.

Results

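The 45 autophagy and lysosome genes described here were chosen by symbol, with earlier results of these data known. All 45 were found by their Ensembl ID among the 60675 gene IDs of the deposited count table. They comprise 4 cargo receptors, 5 ATG8 family proteins, 4 genes of the ULK1 initiation complex, 4 of the PI3-kinase complex, 4 that supply membrane or bind PI3P, 7 of the conjugation machinery, 3 transcription factors of the MiT/TFE family and 14 lysosomal genes. Of the 45, 42 had counts high enough to be tested among 15982 genes. MM.1S, an established human multiple myeloma cell line that grows in culture, was exposed to 0, 40 or 80 µM EGCG (epigallocatechin gallate, the main catechin of green tea) for 24 h. RNA was sequenced from 3 libraries per dose, and those at 0 µM are called the control. All 3 groups are 1 line in 1 medium without a stated genetic change, and the labels name no vehicle for the control. The submitters asked how EGCG leads myeloma cells into apoptosis.

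Autophagy encloses cytoplasm in a double membrane, the autophagosome, which then fuses with the lysosome. The ULK1 kinase complex starts the process, a lipid kinase complex around BECN1 marks the site with PI3P, and conjugation enzymes attach ATG8 proteins to the growing membrane, where cargo receptors dock. Lysosomes are acidified by the V-ATPase and degrade the contents with cathepsins and glycosidases, and transcription factors of the MiT/TFE family are known to drive many of these genes. Plasma cells secrete large amounts of immunoglobulin and are known to depend on both autophagy and the proteasome.

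Library totals ran from 12674490 to 16427343 counts, so 3 counts in a library, taken as the floor, corresponded to 0.183 to 0.234 CPM (counts scaled to the TMM-adjusted library size). Of 14 plasma cell and myeloma markers none was at 0 in any group, and their summed level was 15170 to 17670 CPM in the control, 14020 to 14340 at 40 µM and 11350 to 12200 at 80 µM. The summed levels of 8 monocyte and 9 T and NK cell markers stayed at or below 1.15 and 7.81 CPM. Those of 7 mature B cell markers went from 19.6 to 23.1 CPM in the control to 8.28 to 8.70 CPM at 80 µM, with CD22 at 0 throughout. The sum of 8 stromal and endothelial markers, of which only PECAM1 was tested and called, went from 10.2 to 13.5 CPM in the control to 4.76 to 6.08 CPM at 80 µM, with COL1A2, LUM and CDH5 at 0 throughout. The share of counts from the mitochondrial rRNA genes MT-RNR1 and MT-RNR2 was 0.649 to 0.731% of counts in the control, 1.28 to 1.63% at 40 µM and 3.97 to 4.65% at 80 µM. With the mitochondrially encoded genes left out, the numbers of autophagy and lysosome genes called were again 3, 21 and 15 in the 3 comparisons below. What part the lower plasma cell, B cell and stromal marker sums and the higher mitochondrial share at 80 µM have in the results was otherwise not tested. In bulk RNA, fewer cells of a kind and less RNA per cell cannot be told apart, and the labels do not say that the libraries came from separate cultures, so p-values measure only the spread between these libraries.

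At 80 µM most of the genes that start and shape the autophagosome or recruit its cargo were higher than in the control. In the 5 roles from cargo receptors to PI3P effectors, 15 of 20 tested genes rose and none fell, none of 6 tested conjugation genes was called, and of 13 tested lysosomal genes 2 rose and 2 fell. Of the 42 genes tested, 18 rose and 3 fell at an adjusted p under 0.05 (edgeR quasi-likelihood test, Benjamini-Hochberg over all genes tested, here meant by "called"). Among all 15982 genes, 34.9% were called in this comparison, 17.4% higher and 17.5% lower. The median log2 fold change of the 42 was 0.18, and that of all genes was 0.0. In 19 of the 42 the lowest of the 3 libraries at 80 µM lay above the highest control library, and in 3 the order was the reverse. Both directions together were close to the share over all genes, of which 49.9% had no overlap. That share was not split by direction. A call with a change of 2-fold or more was made for 8 of the 42, against 11.8% of all genes.

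At 40 µM only 3 of the 42 were called, all higher, against 2.30% of all genes called and 1.49% called higher. The median log2 fold change was 0.04 for the 42 and 0.01 for all genes, and 11 of the 42 had an unadjusted p under 0.05, against 19.9% of all genes. Libraries at 40 µM did not overlap the control libraries in 12 genes, 8 higher and 4 lower, where 24.3% of all genes did not overlap. Between the doses, 14 were higher and 1 was lower at 80 µM than at 40 µM, against 23.0% of all genes called, 10.9% higher and 12.1% lower. The median was 0.28 for the 42 and -0.01 for all genes, and 3 of the 42 were called at 2-fold or more, against 5.71% of all genes. Both comparisons with the control use the same 3 control libraries. Mean CPM was ordered control, 40 µM, 80 µM from lowest to highest in 20 genes, from highest to lowest in 4, and in neither way in 18. These orders were not counted over all genes.

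**Figure D1:**
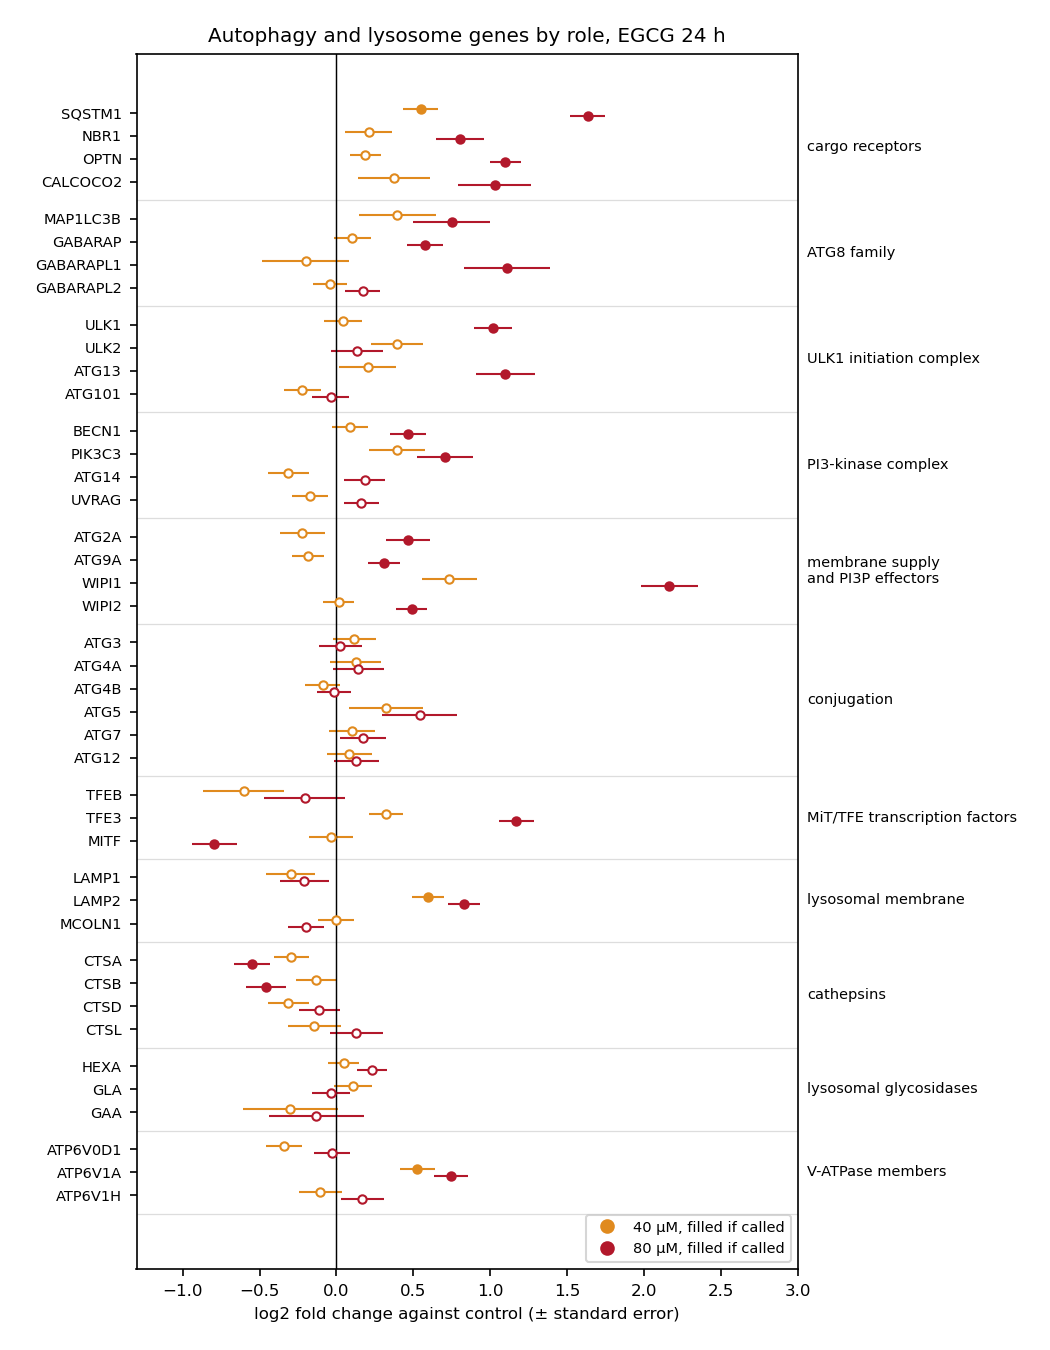
Log2 fold change against the control for the 42 genes tested (horizontal axis, bars are ± 1 standard error), grouped by role from top to bottom, at 40 µM (orange) and 80 µM (red); filled points were called. At 80 µM the filled points to the right of 0 lie in the upper 5 groups plus TFE3, LAMP2 and ATP6V1A, all 6 conjugation genes are open, and MITF, CTSA and CTSB are filled to the left of 0.

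All 4 cargo receptors rose at 80 µM. These proteins bind ubiquitin-tagged or otherwise marked cargo on one side and ATG8 proteins on the other. SQSTM1 (p62, chromosome 5, 179806398 to 179838078 in GRCh38) measured 498, 492 and 639 CPM in control replicates 1, 2 and 3, 825, 792 and 766 CPM at 40 µM, and 1727, 1614 and 1709 CPM at 80 µM. The 3 groups of libraries did not overlap, and the groups are listed in this order of dose and replicate throughout. SQSTM1 rose by 1.63 ± 0.12 (log2 fold change ± SE, n = 3 per group, edgeR adjusted p = 7.87e-06) at 80 µM, a 3.10-fold change, and was higher at 80 µM than at 40 µM by 1.08 ± 0.11 (edgeR adjusted p = 0.000356).

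OPTN (optineurin, chromosome 10, 13099449 to 13138308), a receptor for damaged mitochondria and bacteria, measured 82.4, 87.8 and 72.3 CPM in the control, 91.3, 92.9 and 92.0 CPM at 40 µM and 178, 178 and 163 CPM at 80 µM. Its libraries were tightly grouped at each dose, and the change at 80 µM was 1.10 ± 0.10 (edgeR adjusted p = 3.67e-05). CALCOCO2 (NDP52, chromosome 17, 48830988 to 48866522), a receptor with a similar range of cargo, measured 56.8, 58.8 and 36.8 CPM, then 66.0, 86.4 and 44.9 CPM, then 93.3, 105 and 113 CPM. The 40 µM libraries spread across the control range and beyond it, and only those at 80 µM stood clear of the others (1.03 ± 0.24 against control, edgeR adjusted p = 0.00698). Between the doses CALCOCO2 was not called (0.66 ± 0.23, edgeR adjusted p = 0.0677). It passed with DESeq2 (DESeq2 adjusted p = 0.0324) and with replicate number added to the model (edgeR adjusted p = 0.0407). It also passed without control replicate 3 or 40 µM replicate 2 (edgeR adjusted p = 0.0407 and 0.0303). NBR1 (chromosome 17, 43170481 to 43211689), which works beside SQSTM1 on ubiquitinated aggregates, measured 103, 110 and 111 CPM, then 97.5, 142 and 136 CPM, then 182, 164 and 221 CPM. It rose by 0.81 ± 0.16 at 80 µM (edgeR adjusted p = 0.00273). Summed over the 4 receptors, the level was 783 ± 66.4 CPM in the control, 1077 ± 37.0 CPM at 40 µM and 2149 ± 78.0 CPM at 80 µM (mean ± SD, n = 3), most of it SQSTM1.

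**Figure D2:**
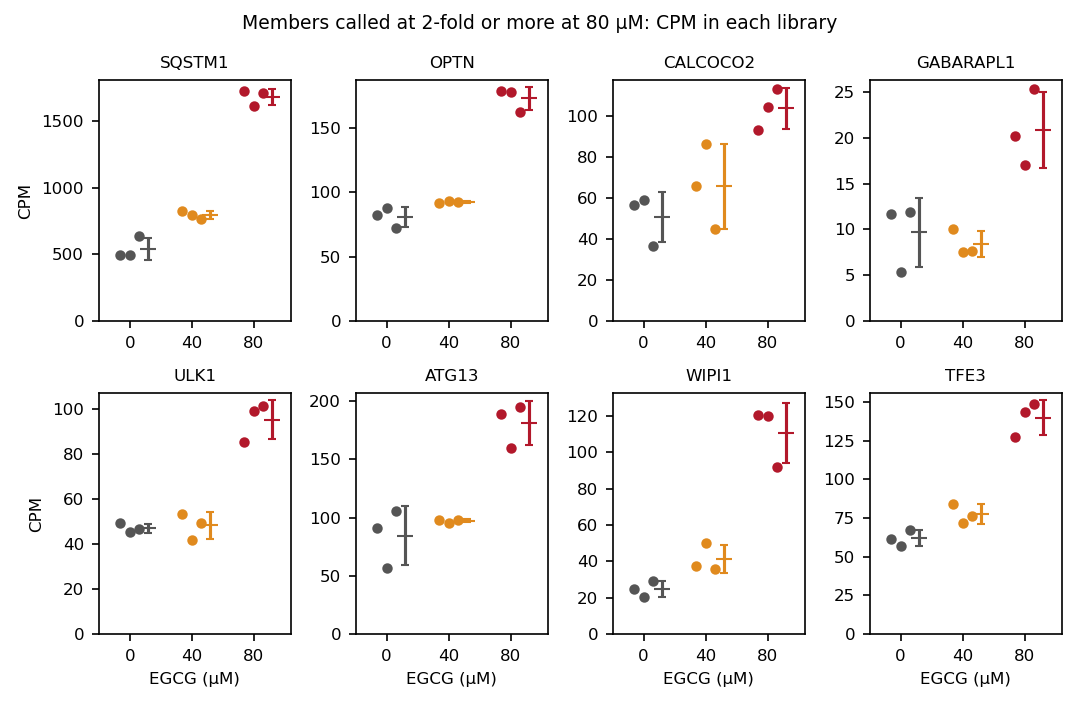
CPM in each library (points; vertical axes start at 0 and differ between panels) at 0, 40 and 80 µM EGCG for the 8 genes called at 2-fold or more at 80 µM, with the mean and SD of 3 libraries beside them. In every panel the 3 libraries at 80 µM lie above all 6 others, and for SQSTM1, OPTN, WIPI1 and TFE3 the libraries at 40 µM also lie above all control libraries.

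Of the ATG8 family, the ubiquitin-like proteins that coat the autophagosome membrane, 3 of the 4 tested rose at 80 µM and none was called at 40 µM. GABARAPL1 (chromosome 12, 10212458 to 10223130) measured 11.7, 5.36 and 11.9 CPM in the control, 10.1, 7.49 and 7.66 CPM at 40 µM and 20.2, 17.1 and 25.3 CPM at 80 µM. Control replicate 2 was the lowest of the 9 libraries, and the 40 µM libraries lay within the control range. The change at 80 µM was 1.11 ± 0.28 against the control (edgeR adjusted p = 0.0116) and 1.31 ± 0.28 against 40 µM (edgeR adjusted p = 0.00858). GABARAP (chromosome 17, 7240014 to 7242770) measured 94.3, 96.5 and 116 CPM, then 105, 102 and 122 CPM, then 155, 162 and 140 CPM. It rose by 0.58 ± 0.12 (edgeR adjusted p = 0.00406).

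MAP1LC3B (LC3B, chromosome 16, 87383995 to 87404779), the protein most used to follow autophagosomes, measured 54.0, 50.5 and 54.5 CPM, then 61.4, 83.4 and 64.5 CPM, then 134, 65.2 and 67.5 CPM. Replicate 1 at 80 µM stood far above the other two, which lay within the 40 µM range. The change was 0.75 ± 0.25 (edgeR adjusted p = 0.041), and 0.32 without that library (edgeR adjusted p = 0.14). Leaving out any 1 control library or 40 µM replicate 1 also ended the call (edgeR adjusted p = 0.0858, 0.0961, 0.0983 and 0.0512). MAP1LC3B2, a near-identical copy, has reads that the counting could share with it, and was higher by 1.08 ± 0.15 at 80 µM (edgeR adjusted p = 0.000382). GABARAPL2 was at 33.4 to 40.6 CPM in the control and 39.7 to 43.7 CPM at 80 µM (0.17 ± 0.11, edgeR adjusted p = 0.27). MAP1LC3A had 0 to 4 counts per library, at or near the floor, and was not tested.

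The ULK1 complex holds the kinases ULK1 and ULK2 and their partners ATG13 and ATG101, and it turns nutrient and stress signals into the start of autophagy. ULK1 (chromosome 12, 131894651 to 131923167) measured 49.3, 45.1 and 46.5 CPM in the control, 53.5, 41.9 and 49.5 CPM at 40 µM and 85.2, 98.9 and 101 CPM at 80 µM. The control and 40 µM groups overlapped, and the level at 80 µM was 2.03-fold that of the control (1.02 ± 0.12, edgeR adjusted p = 0.000182). ATG13 (chromosome 11, 46617527 to 46674818), the scaffold of the complex, measured 91.4, 56.9 and 105 CPM, then 98.2, 95.7 and 97.9 CPM, then 189, 160 and 195 CPM. It rose by 1.10 ± 0.19 against the control and by 0.90 ± 0.19 against 40 µM (edgeR adjusted p = 0.00148 and 0.00773). ULK2 and ATG101 were not called in any comparison. ULK2 ran from 7.58 to 9.79 CPM in the control and from 8.70 to 10.1 CPM at 80 µM, and ATG101 from 38.5 to 49.4 CPM and from 39.7 to 44.6 CPM.

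In the PI3-kinase complex, which makes the lipid PI3P on the forming membrane, 2 of 4 genes rose at 80 µM. BECN1 (Beclin 1, chromosome 17, 42810134 to 42833350) measured 38.8, 46.0 and 41.7 CPM, then 48.2, 42.5 and 43.9 CPM, then 62.0, 52.7 and 60.02 CPM. Its libraries at 80 µM lay above the other 6 (0.47 ± 0.12 against the control, edgeR adjusted p = 0.0107). PIK3C3 (VPS34, chromosome 18, 41955206 to 42087830), the catalytic subunit, measured 20.6, 19.3 and 17.8 CPM, then 22.8, 29.01 and 24.1 CPM, then 40.7, 28.6 and 24.8 CPM. The 80 µM libraries reached down into the 40 µM range, and replicate 1 was the highest. PIK3C3 rose by 0.70 ± 0.18 against the control (edgeR adjusted p = 0.0134), by 0.47 without 80 µM replicate 1 (edgeR adjusted p = 0.0477) and by 0.64 without control replicate 3 (edgeR adjusted p = 0.0531, no longer called).

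ATG14, which targets the complex to autophagosome formation sites, measured 14.98, 16.7 and 13.6 CPM in the control, 11.2, 12.0 and 13.3 CPM at 40 µM and 17.6, 18.0 and 15.9 CPM at 80 µM. It was called between the doses only (0.50 ± 0.13, edgeR adjusted p = 0.0239), with the 40 µM libraries below both other groups. It was no longer called once 40 µM replicate 1 or 2, or 80 µM replicate 1 or 2, was left out (edgeR adjusted p = 0.074, 0.062, 0.0678 and 0.0829). UVRAG, which takes the place of ATG14 in a second form of the complex, was at 23.3 to 27.5 CPM in the control and 27.3 to 30.9 CPM at 80 µM and was not called.

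All 4 genes that supply membrane or read PI3P rose at 80 µM, and WIPI1 had the largest change of the 42. WIPI1 (chromosome 17, 68420948 to 68457513), a protein that binds PI3P on the early membrane, measured 24.6, 20.4 and 29.2 CPM in the control, 37.7, 49.9 and 35.8 CPM at 40 µM and 121, 120 and 91.8 CPM at 80 µM. The 3 groups did not overlap. WIPI1 rose 4.48-fold at 80 µM (2.16 ± 0.18, edgeR adjusted p = 2.35e-05), and at 40 µM the change of 0.73 ± 0.18 was not called (edgeR adjusted p = 0.0644). WIPI1 was called at 40 µM with DESeq2 in place of edgeR (0.73, DESeq2 adjusted p = 0.00772). Its relative WIPI2 (chromosome 7, 5190188 to 5233826), which recruits the conjugation machinery, measured 128, 106 and 120 CPM, then 124, 114 and 120 CPM, then 156, 168 and 173 CPM. The rise in WIPI2 at 80 µM was 0.49 ± 0.10 (edgeR adjusted p = 0.00375), and at 40 µM its change of 0.02 ± 0.10 was not called.

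ATG9A (chromosome 2, 219219380 to 219229717), which sits in the vesicles that seed the membrane, measured 74.0, 77.6 and 91.6 CPM, then 74.4, 67.7 and 71.8 CPM, then 97.7, 101 and 102 CPM. ATG2A (chromosome 11, 64894546 to 64917248), a lipid transfer protein, measured 74.2, 79.7 and 95.9 CPM, then 75.0, 67.1 and 72.1 CPM, then 92.1, 125 and 128 CPM. In both, the 40 µM libraries lay around or below the lowest control library, and the difference between the doses was the larger one, at 0.49 ± 0.11 for ATG9A and 0.69 ± 0.15 for ATG2A (edgeR adjusted p = 0.0087 and 0.00803). Against the control the changes at 80 µM were 0.31 ± 0.11 and 0.46 ± 0.14 (edgeR adjusted p = 0.045 and 0.0304). For ATG2A the call against the control was lost with control replicate 1 or 2, or 80 µM replicate 2 or 3, left out (edgeR adjusted p = 0.106, 0.0767, 0.0982 and 0.1). For ATG9A it was lost with control replicate 1 or 2, 40 µM replicate 1 or 3, or any 1 library at 80 µM left out (edgeR adjusted p from 0.0545 to 0.154).

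None of the 6 tested conjugation genes was called in any of the 3 comparisons. ATG7 and ATG3 act as the activating and transferring enzymes, ATG12 is joined to ATG5, and ATG4A and ATG4B process ATG8 proteins. Against the control, their changes at 80 µM ran from -0.02 for ATG4B to 0.54 for ATG5, and their median was 0.14. Summed, the conjugation genes measured 267 ± 4.73 CPM in the control and 291 ± 12.6 CPM at 80 µM (mean ± SD, n = 3). ATG5 was the one whose libraries at 80 µM (53.9, 45.9 and 42.9 CPM) lay above those of the control (38.2, 26.0 and 33.8 CPM). Its change of 0.54 ± 0.24 did not pass the test (edgeR adjusted p = 0.108), but did without 40 µM replicate 1 (edgeR adjusted p = 0.0326). ATG16L1, which completes the ATG12 and ATG5 complex, had 2 to 9 counts per library and was not tested. Its total over all libraries was 55 counts, against 5115 for ATG5 and 5456 for ATG12. Whether this low count reflects its expression or the counting was not tested.

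Of the 3 MiT/TFE transcription factors, 1 rose and 1 fell at 80 µM. TFE3 (chromosome X, 49028726 to 49043486) measured 61.8, 57.2 and 67.4 CPM in the control, 84.3, 72.0 and 76.3 CPM at 40 µM and 127, 143 and 149 CPM at 80 µM. Its 3 groups did not overlap, and it rose 2.25-fold (1.17 ± 0.11, edgeR adjusted p = 4.55e-05). MITF (chromosome 3, 69739435 to 69968337) measured 12.8, 11.7 and 11.4 CPM, then 11.1, 12.5 and 11.4 CPM, then 6.84, 7.71 and 6.08 CPM. The control and 40 µM groups coincided, and MITF fell by 0.79 ± 0.14 on the log2 scale at 80 µM (edgeR adjusted p = 0.00204). TFEB (chromosome 6, 41683978 to 41736259), the member best known for lysosomal genes, measured 21.4, 23.8 and 25.3 CPM, then 23.7, 12.5 and 9.99 CPM, then 19.6, 18.7 and 22.8 CPM. Replicate 1 at 40 µM lay in the control range and the other 2 libraries well below it. TFEB was not called in any comparison, and without that library its change at 40 µM was -1.06 (edgeR adjusted p = 0.0154) and the difference between the doses was 0.85 (edgeR adjusted p = 0.00914).

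MiT/TFE factors bind a short motif, the CLEAR element, whose palindromic core is TCACGTGA. RefSeq promoters (GRCh38.p14, 250 bases before to 50 after each start) were found for 38 of the 45 genes, and 6 of them (15.8%) held this core, against 1.65% of 15843 coding genes. These were ATG3, LAMP1, MCOLN1, CTSA, GAA and ATP6V0D1. Many of the 45 genes are known targets of MiT/TFE factors. The higher share of the core, and of the E-box below, therefore cannot be told apart from the choice of genes. Promoters were found for 16 of the 18 genes that rose at 80 µM, and none of the 16 held the core. At 1.65% of coding genes, 16 promoters are too few to show whether the core was rarer among them. Promoters for MAP1LC3A, UVRAG, LAMP2, CTSB, HEXA, ATP6V1A and ATP6V1H were not used here. Of these genes LAMP2 and ATP6V1A also rose, and whether they hold the core was not tested. The core with its flanks is printed for the 5 lysosomal genes among the 6 that held it. The levels of these 5 genes are given next, beside those of the MiT/TFE factors. Capitals mark the core, and each line reads 5′ to 3′ on the strand of the gene.
LAMP1, chr13:113297190-113297237, plus strand: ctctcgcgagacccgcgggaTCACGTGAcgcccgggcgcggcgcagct
ATP6V0D1, chr16:67481199-67481228, minus strand: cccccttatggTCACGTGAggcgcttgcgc
GAA, chr17:80101484-80101531, plus strand: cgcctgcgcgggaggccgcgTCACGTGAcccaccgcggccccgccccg
MCOLN1, chr19:7522562-7522609, plus strand: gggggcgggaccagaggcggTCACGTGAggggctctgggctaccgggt
CTSA, chr20:45891298-45891327, plus strand: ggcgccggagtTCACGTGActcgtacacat

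LAMP1, MCOLN1 and GAA each hold a second copy of the core in the same window. The wider E-box CACGTG, which the CLEAR core contains, was in the promoters of 9 of the 38 genes (23.7%) and of 10.9% of coding genes. It was again in none of the 16 promoters found for genes that rose. The antioxidant response element TGACNNNGC, searched on both strands, was in 10 of the 38 (26.3%) and in 17.9% of coding genes, and 2 of the 16, CALCOCO2 and MAP1LC3B, held it. The composite site TGATGNAA of ATF4 and C/EBP proteins, also searched on both strands, was in none of the 38 and in 3.60% of coding genes. A match describes letters in these windows only.

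Of the 5 lysosomal genes with a printed core, none rose at 80 µM and CTSA fell. Among all genes tested 17.4% were called higher and 17.5% lower, and 5 genes are too few to set against these shares. CTSA (cathepsin A, chromosome 20, 45890144 to 45898820), a carboxypeptidase that also protects other lysosomal enzymes, measured 147, 153 and 192 CPM in the control, 143, 126 and 133 CPM at 40 µM and 109, 113 and 114 CPM at 80 µM. Each group lay below the one at the next lower dose, and CTSA fell by 0.55 ± 0.12 on the log2 scale at 80 µM (edgeR adjusted p = 0.00456). LAMP1, a major glycoprotein of the lysosomal membrane, measured 290, 355 and 440 CPM, then 283, 267 and 332 CPM, then 284, 357 and 298 CPM. The groups overlapped, and the change at 80 µM was -0.21 ± 0.16 (edgeR adjusted p = 0.337). MCOLN1, a calcium channel of the lysosome, had a change of -0.20 ± 0.12 (edgeR adjusted p = 0.221), and GAA, the enzyme that breaks down glycogen, of -0.13 ± 0.31 (edgeR adjusted p = 0.775).

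ATP6V0D1, a subunit of the membrane part of the proton pump, measured 118, 117 and 148 CPM in the control, 104, 91.5 and 106 CPM at 40 µM and 128, 121 and 126 CPM at 80 µM. The 40 µM libraries lay below both other groups, without a call in any comparison (edgeR adjusted p = 0.147 against the control and 0.0786 between the doses). The latter passed without control replicate 3 (0.32, edgeR adjusted p = 0.0312).

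LAMP2 and ATP6V1A were the lysosomal genes that rose, and both did so at each dose. LAMP2 (chromosome X, 120427827 to 120469365), a membrane protein needed for fusion with autophagosomes and for chaperone-mediated autophagy, measured 112, 126 and 103 CPM in the control, 166, 179 and 169 CPM at 40 µM and 215, 202 and 188 CPM at 80 µM. The 3 groups did not overlap. LAMP2 rose by 0.59 ± 0.10 at 40 µM and by 0.83 ± 0.10 at 80 µM (edgeR adjusted p = 0.0182 and 0.000226), and the doses did not differ by the test (0.24 ± 0.10, edgeR adjusted p = 0.125). ATP6V1A (chromosome 3, 113747019 to 113812056), the catalytic subunit of the proton pump, measured 161, 166 and 129 CPM, then 205, 224 and 228 CPM, then 261, 265 and 238 CPM. Here too the groups were separate, with a rise of 0.53 ± 0.11 at 40 µM and of 0.74 ± 0.11 at 80 µM (edgeR adjusted p = 0.0412 and 0.000693). ATP6V1H, a regulatory subunit of the same part of the pump, was at 26.4 to 31.5 CPM in the control and 28.8 to 36.6 CPM at 80 µM and was not called.

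Each of the 3 calls at 40 µM ended when some libraries were left out. SQSTM1, the third gene called there, had a change of 0.55 ± 0.11 (edgeR adjusted p = 0.0352). Its call held when control replicate 3 was left out and ended when any other library was left out, with edgeR adjusted p of 0.14 and 0.0887 without control replicates 1 and 2, 0.0621, 0.0844 and 0.0889 without 40 µM replicates 1 to 3, and 0.0594, 0.0641 and 0.0643 without 80 µM replicates 1 to 3. For ATP6V1A the call held only without 40 µM replicate 1, and the other 8 omissions gave edgeR adjusted p from 0.0532 (control replicate 2) to 0.141 (40 µM replicate 2). The call for LAMP2 was lost with control replicate 1 or 3, or 40 µM replicate 2 or 3, left out (edgeR adjusted p = 0.0782, 0.0658, 0.0778 and 0.0595).

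**Figure D3:**
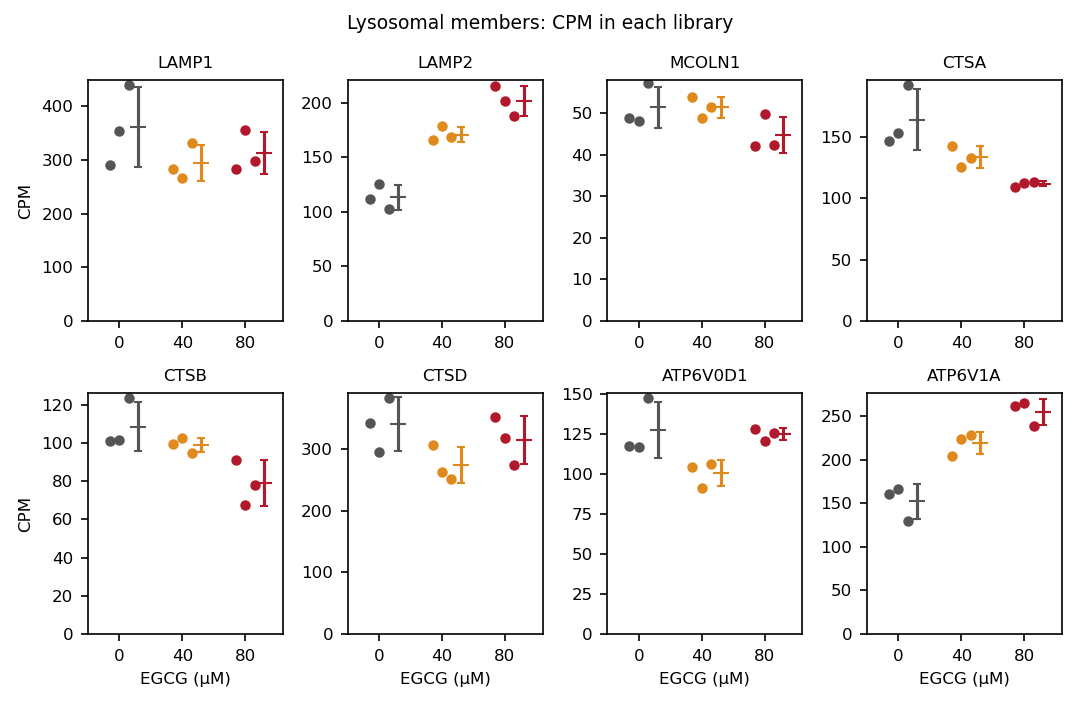
CPM in each library (points; vertical axes start at 0 and differ between panels) at 0, 40 and 80 µM EGCG for 8 lysosomal genes, with the mean and SD of 3 libraries beside them. For LAMP2 and ATP6V1A the 3 groups do not overlap and lie higher with dose, CTSA and CTSB lie lowest at 80 µM, and LAMP1, MCOLN1, CTSD and ATP6V0D1 overlap between control and 80 µM.

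Among the other cathepsins, CTSB (chromosome 8, 11842524 to 11869448), a cysteine protease, measured 101, 102 and 123 CPM, then 99.7, 102 and 94.7 CPM, then 91.3, 67.7 and 78.2 CPM. All 3 libraries at 80 µM lay below the 6 others, and CTSB fell by 0.46 ± 0.13 on the log2 scale (edgeR adjusted p = 0.0194). The call was lost with control replicate 3, or 80 µM replicate 2 or 3, left out (edgeR adjusted p = 0.0559, 0.0957 and 0.067). CTSD, the main aspartic protease of the lysosome, was at 295 to 382 CPM in the control, 251 to 307 CPM at 40 µM and 274 to 352 CPM at 80 µM. CTSL, a further cysteine protease, ran from 7.74 to 10.9 CPM in the control and from 9.30 to 11.5 CPM at 80 µM. Neither was called, with changes at 80 µM of -0.11 ± 0.13 and 0.13 ± 0.17.

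The glycosidases HEXA, GLA and GAA were not called in any comparison. HEXA, which removes sugars from gangliosides, was at 111 to 128 CPM in the control and 133 to 145 CPM at 80 µM, groups that did not overlap (0.23 ± 0.10, edgeR adjusted p = 0.0911). Without control replicate 3 its change of 0.28 passed (edgeR adjusted p = 0.0496). GLA, an alpha-galactosidase, was at 27.9 to 33.8 CPM and 26.2 to 31.5 CPM. NEU1, the lysosomal sialidase, was listed at 0 in all 9 libraries. It lies in a stretch of chromosome 6 (29000000 to 33000000) in which 78 of 153 coding genes (51.0%) were listed at 0, against 16.7% of 19903 coding genes overall. The tubulin gene TUBB and the splicing gene LSM2, also in that stretch and used by most cells, were listed at 0 as well, so no level is given for NEU1.

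Levels were compared between genes as CPM per kilobase of exon union, the combined length of a gene's GENCODE 29 exons. The order depends on the length used. The authors' FPKM values imply lengths of 4.95, 7 and 8.97 times the exon union for CTSD, CTSA and CTSB. For SQSTM1 and LAMP1 the factors are 1.78 and 1.36. The places given here therefore hold for the exon union only. In the control CTSD was highest at 109 ± 13.9, followed by SQSTM1 at 70.9 ± 10.8, LAMP1 at 63.0 ± 13.1, GABARAP at 45.2 ± 5.35 and ATP6V1A at 29.6 ± 3.85 (mean ± SD, n = 3). CTSD lay clear of SQSTM1 in every library, whereas SQSTM1 and LAMP1, and LAMP1 and GABARAP, overlapped. The lowest of the 42 were ULK2 at 0.865 ± 0.116 and GAA at 0.792 ± 0.323, whose ranges also overlapped. At 80 µM SQSTM1 was highest at 220 ± 7.94, above CTSD at 100 ± 12.4 in every library. In this order WIPI1 was in place 25 in the control and place 9 at 80 µM, while CTSB was in place 11 and place 27 and CTSA in place 6 and place 13.

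**Figure D4:**
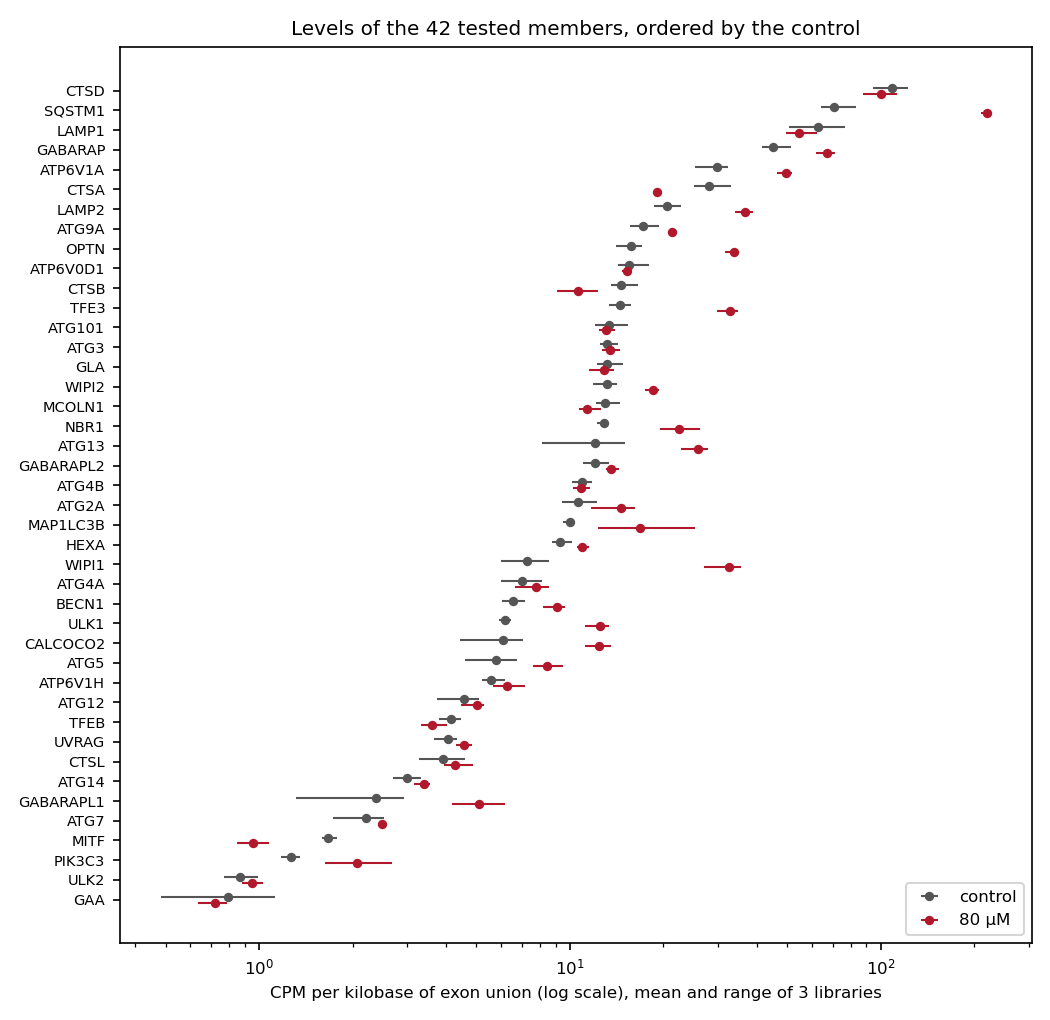
CPM per kilobase of exon union (log axis) for the 42 genes tested, ordered by the control mean, in the control (grey) and at 80 µM (red); points are means and bars span the lowest to the highest of 3 libraries. SQSTM1 moves to the top at 80 µM, WIPI1 shows the widest gap between the groups, and CTSA, CTSB and MITF lie left of their control values.

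For several of these genes a neighbour overlaps the span from gene start to gene end. Whether their exons overlap was not checked, and none of the sources used here gives the strand setting of the counting. How many reads could be shared is therefore not known, and the counts compared below are those of whole genes. FBXO31 overlaps MAP1LC3B on the opposite strand with 42.7% as many counts, ARSG overlaps WIPI1 with 23.9%, and AP3S1 overlaps ATG12 with 41.3%. PSME3 overlaps BECN1, PRDM1 overlaps ATG5, VGLL4 overlaps ATG7 and THAP4 overlaps ATG4B, each with more counts than the gene itself. MCOLN1 shares its strand with PNPLA6, which has 215% as many counts.

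A further 145 genes of the pathway, in 7 lists, were looked at in the same fit, and 139 were tested. At 80 µM 32 of them rose and 20 fell, against 17.4% and 17.5% of all genes tested. At 40 µM 4 rose and 3 fell, against 1.49% and 0.813% of all genes. Between the doses 24 were higher and 13 lower at 80 µM, against 10.9% and 12.1%. Their median log2 fold change was 0.10 at 80 µM.

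Among other cargo receptors and adaptors 5 of 16 rose at 80 µM and 1 fell (median 0.34), against 17.4% and 17.5% of all genes. CCPG1, a receptor for the endoplasmic reticulum, measured 38.0, 43.1 and 31.5 CPM in the control, 85.6, 91.6 and 84.7 CPM at 40 µM and 208, 178 and 160 CPM at 80 µM. It rose at both doses without overlap, by 1.22 ± 0.14 and 2.28 ± 0.14 (edgeR adjusted p = 0.00159 and 3.68e-06). BNIP3L, a mitochondrial receptor, rose by 1.41 ± 0.14 at 80 µM, WDFY3, a scaffold for aggregates, by 1.59 ± 0.17, and STBD1, which tethers glycogen, by 0.74 ± 0.10 (edgeR adjusted p = 4.68e-05, 9.69e-05 and 0.000471). BNIP3L was also called at 40 µM (0.76, edgeR adjusted p = 0.0193), a call lost with control replicate 1 or 3, or 40 µM replicate 2 or 3, left out (edgeR adjusted p = 0.0757, 0.0727, 0.0828 and 0.0586).

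Of 25 further genes of the core machinery 7 rose at 80 µM and 3 fell, against 17.4% and 17.5% of all genes. Their median was 0.36. NRBF2 and RUBCN, which bind the PI3-kinase complex, rose by 0.91 ± 0.10 and 0.90 ± 0.09, and WDR45, a relative of the WIPI proteins, by 0.94 ± 0.13 (edgeR adjusted p = 0.000131, 5.5e-05 and 0.000404). RUBCN is known to restrain the complex rather than activate it. For the signalling proteins of the lysosome surface, 6 of 17 rose at 80 µM and 1 fell, against the same shares of all genes. RRAGC, a GTPase that recruits mTORC1, rose by 1.20 ± 0.10 (edgeR adjusted p = 2.4e-05). FLCN and its partners FNIP1 and FNIP2, which act on that GTPase, rose by 1.01 ± 0.11, 1.37 ± 0.18 and 0.88 ± 0.14 (edgeR adjusted p = 0.000124, 0.000255 and 0.00077). The median of the 17 was 0.01, close to that of all genes.

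Among the other lysosomal membrane proteins 5 of 21 rose and 1 fell at 80 µM, against 17.4% and 17.5% of all genes. LAMP3, an inducible relative of LAMP1, measured 9.24, 8.18 and 9.19 CPM, then 21.8, 27.8 and 24.1 CPM, then 73.2, 74.7 and 72.6 CPM. It rose at both doses, by 1.47 ± 0.12 and 3.05 ± 0.13 (edgeR adjusted p = 0.000316 and 3.36e-07). OSTM1, a chloride transport partner, and NPC1, a cholesterol transporter, rose by 0.53 ± 0.13 and 0.39 ± 0.12, and the channel TPCN1 fell by 0.84 ± 0.12 on the log2 scale (edgeR adjusted p = 0.0112, 0.0268 and 0.000392). The NPC1 call was lost with control replicate 1 or any 1 library at 80 µM left out (edgeR adjusted p from 0.0591 to 0.104).

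Of 16 other subunits of the proton pump 4 rose and 3 fell at 80 µM, against the 17.4% and 17.5% of all genes. ATP6V0A1 measured 61.6, 60.4 and 61.6 CPM in the control, 103, 126 and 126 CPM at 40 µM and 184, 215 and 192 CPM at 80 µM, and rose by 0.95 ± 0.11 and 1.69 ± 0.11 (edgeR adjusted p = 0.00169 and 4.84e-06). TCIRG1, which encodes an alternative form of the same subunit, fell by 0.86 ± 0.12 on the log2 scale at 80 µM (388, 374 and 434 CPM against 206, 217 and 238 CPM, edgeR adjusted p = 0.000371). The 2 forms thus changed in opposite directions. ATP6V1C2 fell by 1.70 ± 0.19 and ATP6V1E1 rose by 0.76 ± 0.19 (edgeR adjusted p = 0.000123 and 0.0122). TCIRG1 was also called lower at 40 µM (-0.52, edgeR adjusted p = 0.0474), a call that ended when any 1 library was left out (edgeR adjusted p from 0.053 to 0.126).

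Among the other lysosomal hydrolases and their activators 4 of 35 rose and 7 fell at 80 µM, against 17.4% and 17.5% of all genes. Their median was -0.09. AGA, an enzyme that breaks down glycoproteins, rose by 0.86 ± 0.13, while ARSB, a sulfatase, and CTSC, a cathepsin, fell by 0.73 ± 0.13 and 0.71 ± 0.12 on the log2 scale (edgeR adjusted p = 0.00083, 0.00197 and 0.00138). NAGLU and SMPD1, named after their values were seen, were the hydrolases called at 40 µM, both at -0.87 (edgeR adjusted p = 0.0352 and 0.0395). Of the 9 fits that left out 1 library, 8 ended the call of NAGLU (all but that without 40 µM replicate 1) and 7 that of SMPD1 (all but those without 40 µM replicate 3 or 80 µM replicate 2), with edgeR adjusted p reaching 0.116 and 0.128. Of 9 genes that sort hydrolases by mannose 6-phosphate, 1 rose and 4 fell at 80 µM, against the same shares of all genes. Their median was -0.46. IGF2R, the large sorting receptor, rose by 0.62 ± 0.10 (edgeR adjusted p = 0.00118). GNPTAB and NAGPA, which make the tag, and GGA2, an adaptor of the receptors, fell by 0.46 ± 0.14, 0.65 ± 0.20 and 0.53 ± 0.16 on the log2 scale (edgeR adjusted p = 0.0227, 0.0297 and 0.0222). Each of these 3 calls ended when 1 of 4 libraries was left out: control replicate 1 or 2 or 80 µM replicate 2 or 3 for GNPTAB, control replicate 1 or 3 or 80 µM replicate 1 or 2 for NAGPA, and control replicate 3 or any at 80 µM for GGA2 (edgeR adjusted p from 0.0512 to 0.0988).

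**Figure D5:**
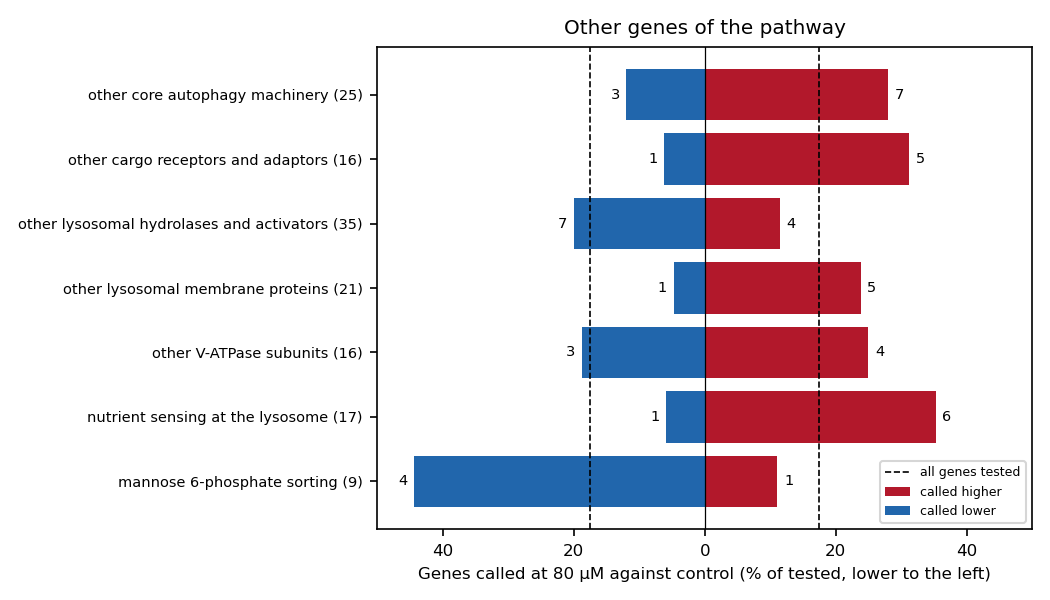
Share of the tested genes of each of the 7 further lists (number tested in brackets) called higher (red, to the right) or lower (blue, to the left) at 80 µM against the control, in percent, with the number of genes at each bar; dashed lines show the shares over all 15982 genes, 17.4% higher and 17.5% lower. Nutrient sensing, cargo receptors, core machinery, membrane proteins and V-ATPase subunits reach past the right line with 6, 5, 7, 5 and 4 genes, and mannose 6-phosphate sorting, hydrolases and V-ATPase subunits past the left line with 4, 7 and 3. The hydrolases and V-ATPase subunits pass the left line only slightly, and no list was tested against these lines.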

How the data were processed

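Each gene has a raw count and an FPKM value per library in the authors' table, per the file headers. The counts deposited by the authors are unnormalized whole numbers. FPKM, which the authors deposited beside them, divides by a gene length, and the values imply lengths with a median of 1.64 times the GENCODE 29 exon union, so levels between genes were computed from counts instead, and no FPKM is reported. GRCh38 is the build in the submitters' processing notes, which list as tools HISAT2, CASAVA 1.8, edgeR and SAMtools 1.3.1 without saying what each did. The counting program, its strand setting, the annotation release and any poly(A) selection are named in none of the sources used here.

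Symbols were matched for 60419 of 60675 IDs, and positions are GRCh38 from GENCODE 29 (58444 IDs). The filter filterByExpr kept 15982 genes with 99.71 to 99.83% of each library's counts, and TMM factors ran from 0.945 to 1.031. With edgeR 4.0.16 (R 4.3.3), 1 quasi-likelihood model with dose as its factor covered all 9 libraries and left 6 residual degrees of freedom, and the procedure was tested on simulated data. P-values were Benjamini-Hochberg adjusted over all genes tested. SEs come from the size of the log2 fold change over the root of F. Replicates differed by 12.71 to 33.21 times the sampling noise (chi-square over its degrees of freedom), so none was a copy.

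The genes and lists were chosen with earlier results of these data known. The text names every member, and the 4 genes with the smallest p at 80 µM against control in each further list, except 1 that is not reported here. Alternatives were RLE scaling, library totals, mitochondrial genes left out, DESeq2 1.42.0, limma-voom (limma 3.58.1), no filter, a mean CPM of at least 1, only the 6 libraries compared, a replicate block, and each library left out. The floor covers counting error only.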

Additional observations from a re-analysis of the deposited data

How the results depend on the processing

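Of the 21 calls at 80 µM against the control, 16 were kept in all 18 alternatives, as were 11 of 15 between the doses and 0 of 3 at 40 µM. No called gene changed sign in any of the 18. Calls at 40 µM depended on the settings: all genes called numbered 368 in the main analysis, 857 with DESeq2, 228 without a filter, 153 with only the 6 libraries compared and 183 with the replicate block. The 3 genes of the main list became 0 with only the 6 libraries compared and 1 with the block. The 7 of the further lists became 4 without a filter, 3 with only the 6 libraries compared and 4 with the block. The cause of these shifts was not tested.

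Leaving out 1 library gave 136 to 469 genes called at 40 µM, 4170 to 5775 at 80 µM and 2101 to 4059 between the doses. For the 42 genes tested the counts were 0 to 3, 18 to 21 and 13 to 18, and for the further lists 3 to 5, 35 to 58 and 19 to 42. All 3 calls at 40 µM were lost without control replicate 1 or 40 µM replicate 2 or 3. Between the doses NBR1 lost its call without 40 µM replicate 1 or 80 µM replicate 3 (adjusted p = 0.0521 and 0.0767). GABARAP lost its own without 40 µM replicate 1 or 2 or 80 µM replicate 1 or 2 (0.0513 to 0.0695), and BECN1 without control replicate 1, 40 µM replicate 2 or 3 or 80 µM replicate 1 or 3 (0.0508 to 0.123).

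No pairing of the libraries by replicate number was seen. Deviations of same-numbered libraries correlated at -0.145 to 0.054, and not every library correlated best with its own number. With 3 libraries per group these values cannot exclude a pairing, and the labels do not state one. With the block, 19 of the 42 genes were called at 80 µM and 15 between the doses. Genes not called changed sign in 23, 14 and 7 alternative values at 40 µM, 80 µM and between the doses, all with an adjusted p of at least 0.629. MAP1LC3A and ATG16L1 had too few counts to test, and a change in them was not detectable at this depth.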
